A study of Mus musculus with 18 samples.

Results

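The genes described here are 10 that mark macrophages or their activation: Csf1r, Csf1, Cd68, Adgre1, Itgam, Mrc1, Cd14, Lyz2, Lgals3 and Msr1. They were taken by symbol, as every probe set that the platform annotation paired with 1 of these symbols alone, which gave 18 of the 22626 probe sets that were no controls. Csf1 and Msr1 had 4 probe sets each, Csf1r had 3, and the other 7 genes had 1 each. Where a gene is counted once, it stands by its probe set with the highest mean log2 intensity, called its brightest probe set, among 12393 genes measured that way. No measured value entered the choice of the symbols, but they were chosen with earlier results of these data known.

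The samples were kidneys of C57BL/6 mice of 3 genotypes: wild type (WT), TIMP2-/- and TIMP3-/-. The knockouts lack 1 of the tissue inhibitors of metalloproteinases, proteins that block enzymes which cut matrix and release membrane proteins. Mice had unilateral ureteral obstruction (UUO), in which the right ureter was tied so that the kidney behind it was blocked, or a sham operation without the tie, and the kidney of that side was taken at day 3. Each of the 6 groups held 3 arrays labelled as biological replicates, 18 in all, and an array is named here by group and replicate number. The labels used here name no other allele and no age for these mice. Whole kidney was measured, so fewer cells of a type and less RNA per cell cannot be told apart.

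Macrophages are phagocytes that live in most tissues and are replenished or joined by blood monocytes after injury. Their survival and growth depend on the receptor CSF1R, which binds the growth factors CSF1 and IL-34, and in the kidney tubular cells are a known source of both ligands. In the obstructed kidney, macrophages gather in the space between the tubules, where they clear debris and shape inflammation, repair and scarring. Several of the genes are not exclusive to macrophages: neutrophils also carry Itgam, Lyz2 and Lgals3, injured tubular cells can express Cd14, Lgals3 and Csf1, and some endothelial cells carry Mrc1.

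Because most of the genes moved together, the bases upstream of 4 of them are shown here to let a reader see what stretch of DNA they do and do not share. RefSeq, on GRCm38.p6, held a gene start for 6 of the 10 genes that could be used (Csf1, Cd68, Itgam, Mrc1, Lyz2 and Lgals3), and the window was the 250 bases before that start, printed 5′ to 3′ along the gene. Capitals mark matches, on either strand, to 3 motifs: GAGGAA, the core bound by the myeloid factor PU.1 (the product of Spi1), TGANTCA, bound by AP-1 factors, and TTGCNNAA, bound by C/EBP factors. The Cd68 window is chr11:69666171-69666420 on the minus strand, Itgam's is chr7:128062390-128062639 on the plus strand, Mrc1's is chr2:14229164-14229413 on the plus strand and Lyz2's is chr10:117282273-117282522 on the minus strand.
Cd68: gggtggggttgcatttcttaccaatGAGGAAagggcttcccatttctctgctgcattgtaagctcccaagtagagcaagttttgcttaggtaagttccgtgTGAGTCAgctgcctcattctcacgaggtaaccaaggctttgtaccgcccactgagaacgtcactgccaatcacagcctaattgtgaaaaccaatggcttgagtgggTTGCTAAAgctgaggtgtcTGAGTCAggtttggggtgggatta
Itgam: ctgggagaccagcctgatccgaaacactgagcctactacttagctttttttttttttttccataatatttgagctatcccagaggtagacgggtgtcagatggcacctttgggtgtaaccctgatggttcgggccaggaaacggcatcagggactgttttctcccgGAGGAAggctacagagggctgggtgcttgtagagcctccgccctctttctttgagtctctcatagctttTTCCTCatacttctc
Mrc1: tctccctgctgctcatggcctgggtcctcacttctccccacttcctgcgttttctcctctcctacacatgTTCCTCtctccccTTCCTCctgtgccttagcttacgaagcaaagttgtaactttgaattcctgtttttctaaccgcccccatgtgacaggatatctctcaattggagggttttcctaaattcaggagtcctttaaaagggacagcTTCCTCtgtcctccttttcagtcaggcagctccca
Lyz2: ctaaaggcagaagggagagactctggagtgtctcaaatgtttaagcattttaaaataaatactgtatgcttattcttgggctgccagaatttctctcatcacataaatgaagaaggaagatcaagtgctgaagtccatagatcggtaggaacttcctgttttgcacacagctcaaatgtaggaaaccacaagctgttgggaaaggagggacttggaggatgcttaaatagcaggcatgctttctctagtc

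GAGGAA matched in 3 of the 6 windows, those of Cd68, Itgam and Mrc1, and in 23.3% of all 32851 promoter windows of the same length. In Itgam it lay 84 and 15 bases before the start, in Mrc1 it lay 180, 167 and 35 bases before, and in Cd68 it lay 225 bases before. Cd68 was also the 1 gene of the 6 with TGANTCA, 149 and 24 bases before its start, and with TTGCNNAA, 43 bases before. Those motifs matched in 6.75% and 9.56% of all windows. The Lyz2 window held no match to these letters. A match describes the sequence and shows no binding, and the lack of one says nothing of the factor.

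The arrays were checked first. Deposited intensities had a median between 201.25 and 247.45 on each array, and a 25th percentile between 56.76 and 64.215. Values under an array's 25th percentile are called its dim range here. Replicate arrays correlated at 0.954 to 0.997 across probe sets. Timp3 was 35.14 to 60.81 on the TIMP3-/- arrays and at least 3171 on all others, and Timp2 was 570.8 to 897.1 on the TIMP2-/- arrays against 970.6 to 5304 elsewhere, so both genes went with their labels. The 2 checks were not equally clear: Timp3 fell to the dim range in its knockout, whereas Timp2 stayed well above it. The counts of the 10 genes were also made without 3 arrays (WT sham 3, WT UUO 2 and TIMP3-/- UUO 2) that earlier results of these data had set apart from the rest of their groups. WT UUO 2 also carried a strong signal of liver transcripts, with Alb, the serum protein albumin, at 28106 against at most 933.2 on the other 17 arrays. The liver has macrophages of its own, the Kupffer cells. Of 5 measured Kupffer markers, Cd5l was 191.3 on WT UUO 2, Clec4f 106.2, Vsig4 86.01, Marco 61.47 and Clec1b 31.87. Sham arrays had 36.08 to 49.68 for Cd5l and 30.71 to 56.94 for Vsig4, all in the dim range and below WT UUO 2. They reached 109.4 for Clec4f and 41.25 for Clec1b, and had 65.04 to 85.97 for Marco. On TIMP3-/- UUO 1, with Alb at 84.09, Cd5l was 161.7 and Vsig4 76.11. The summed intensity of the 5 was 274.69 to 476.85 in WT UUO and 227.35 to 396.97 in TIMP3-/- UUO. It was 262.86 to 265.89 in WT sham and up to 326.83 in TIMP3-/- sham.

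Obstruction raised 9 of the 10 genes in each genotype, and Msr1 was the exception by its brightest probe set. In WT the rises ran from 2.44-fold for Csf1r to 14.8-fold for Lyz2, and the obstructed kidneys of the 9 genes all lay above the sham kidneys of their genotype, as did those of 19.2% of all probe sets in WT, 20.9% in TIMP2-/- and 23% in TIMP3-/-. The test was limma on log2 intensity with 6 group means and Benjamini-Hochberg adjustment over all 22626 probe sets, and a probe set passed at an adjusted p under 0.05. Of all probe sets, 14.7% passed as higher in WT, 14.1% in TIMP2-/- and 25% in TIMP3-/-. In either direction 30.8%, 35% and 62.5% passed, with 16.1%, 20.9% and 37.5% lower. By probe set, 13 of 18 were higher in WT, 13 in TIMP2-/- and 14 in TIMP3-/-, where 1 more was lower. The median log2 difference over the 10 genes was 2.98 in WT, 2.37 in TIMP2-/- and 2.84 in TIMP3-/-, beside −0.12, −0.12 and −0.18 over all probe sets. The count of 9 genes was the same without the 3 arrays set apart and without any single array, WT UUO 2 included.

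**Figure D1:**
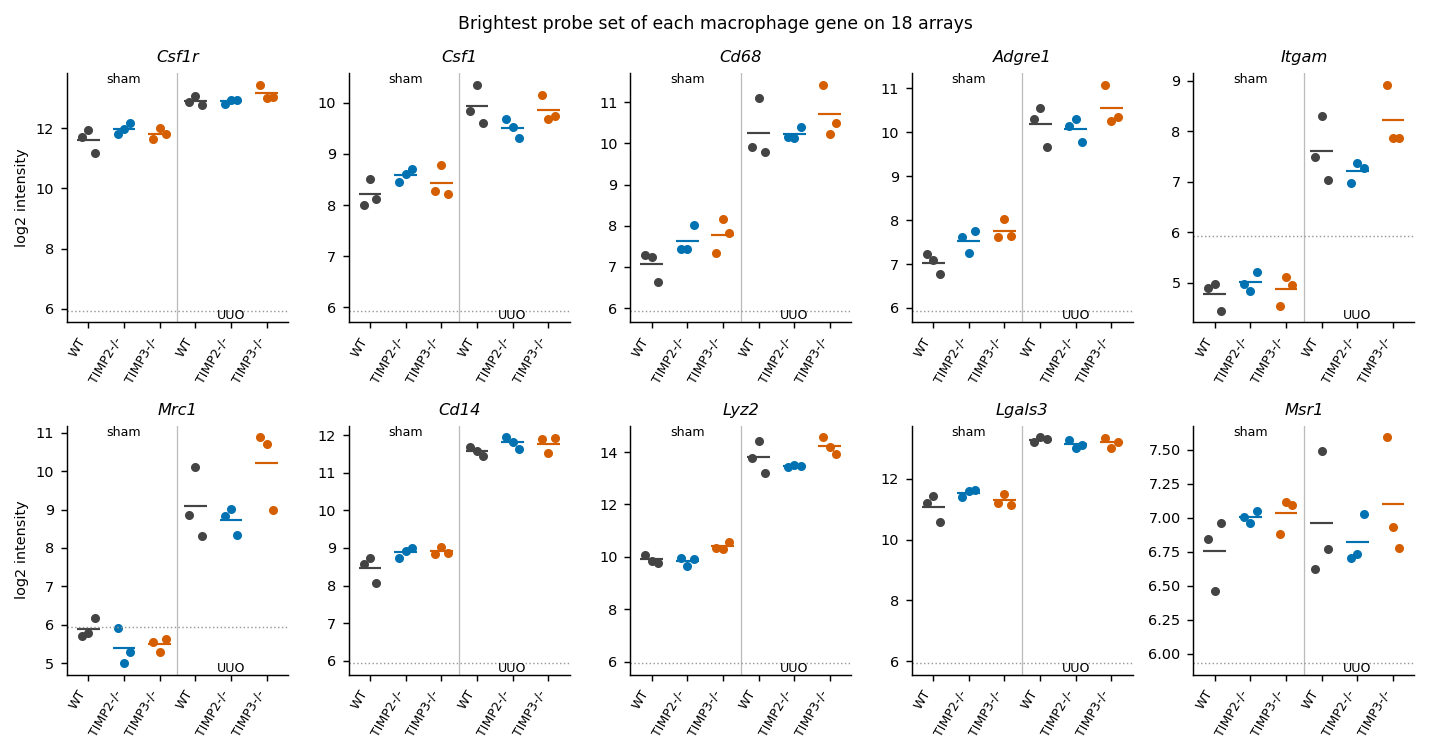
Log2 intensity (vertical axes) of the brightest probe set of each gene on every array, with sham left and UUO right of the grey line, 1 point per array, bars at the mean of 3 arrays and a dotted line at the dim level of 61 (median of the arrays' 25th percentiles). In 9 genes every UUO point lies above every sham point, while the points of Msr1 overlap.

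Csf1, the ligand, was read by its brightest probe set 1460220_a_at. On sham arrays 1 to 3 its intensity was 257.8, 362.3 and 277.0 in WT, 348.7, 389.4 and 418.6 in TIMP2-/-, and 309.8, 443.7 and 297.7 in TIMP3-/-. After UUO it was 921.6, 1310 and 779.4 in WT, 823.8, 732.6 and 638.0 in TIMP2-/-, and 1144, 824.2 and 860.5 in TIMP3-/-. The lowest obstructed kidney, TIMP2-/- UUO 3, was above the highest sham kidney, TIMP3-/- sham 2. The log2 difference was 1.73 ± 0.21 (SE, adjusted p = 2.58e-05) in WT, 0.92 ± 0.21 (0.00466) in TIMP2-/- and 1.44 ± 0.21 (5.94e-05) in TIMP3-/-.

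The 4 probe sets of Csf1 did not move alike. 1448914_a_at rose by 0.89 ± 0.16 in WT (adjusted p = 0.000588), 0.51 ± 0.16 in TIMP2-/- (0.0211) and 0.61 ± 0.16 in TIMP3-/- (0.00394), on the log2 scale. 1425155_x_at rose by 0.83 ± 0.21 (0.0083), 0.83 ± 0.21 (0.0092) and 0.64 ± 0.21 (0.0177) in the same order. Against these, 1425154_a_at was 266.0, 231.2 and 260.5 in WT sham and 251.2, 205.3 and 238.9 in WT UUO, a difference of −0.13 ± 0.16 that did not pass (adjusted p = 0.57). In TIMP3-/- it went from 222.7, 265.0 and 314.7 to 202.4, 168.2 and 224.8, groups that overlapped, and passed as lower (−0.43 ± 0.16, adjusted p = 0.0297). That call was lost without any single one of TIMP3-/- sham 2, sham 3, UUO 1 and UUO 2 (adjusted p 0.0514 to 0.146). The rise of 1448914_a_at in TIMP2-/- was lost without sham 1, sham 2 or UUO 1 of that genotype (adjusted p 0.0656 to 0.0874), and that of 1425155_x_at in TIMP3-/- without sham 1, sham 2 or UUO 1 (0.0618 to 0.0701). Over the 18 arrays the log2 intensity of 1425154_a_at correlated at −0.39 to −0.61 with the other 3, which correlated at 0.80 to 0.93 among themselves. Which Csf1 transcripts each probe set reads was not examined.

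**Figure D2:**
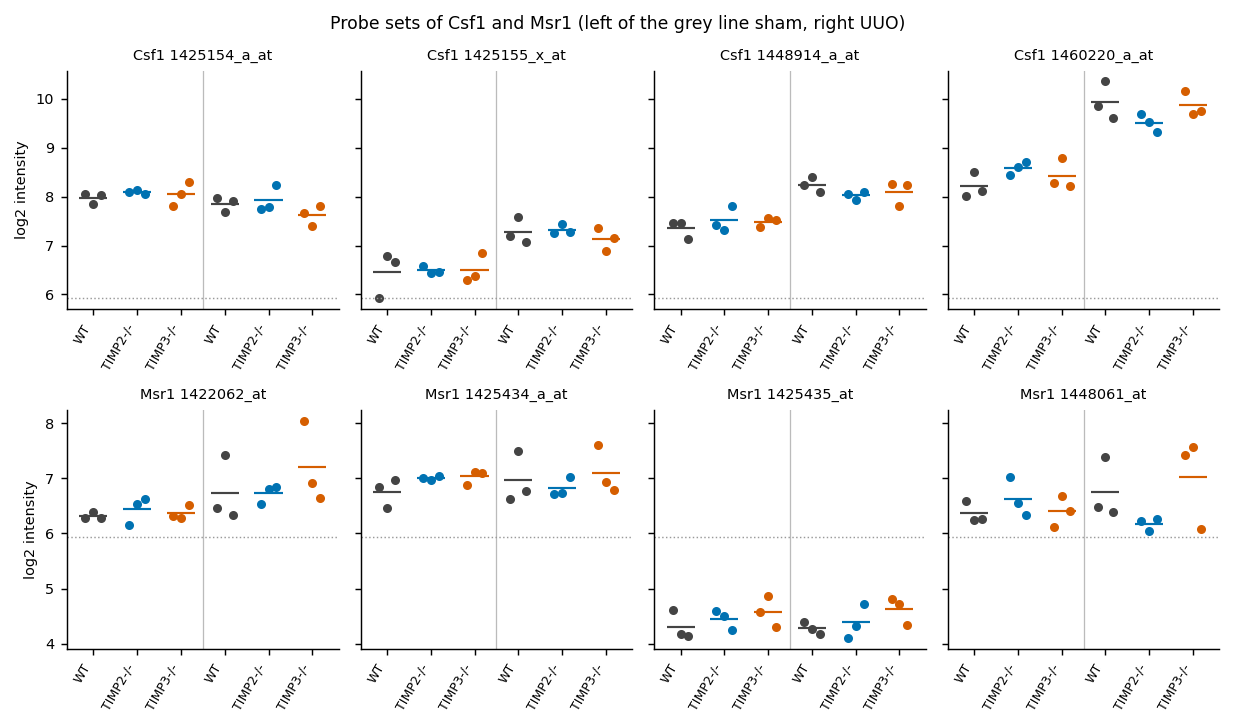
Log2 intensity (vertical axes) of the 4 probe sets of Csf1 (top) and the 4 of Msr1 (bottom) on every array, with points, mean bars and dotted dim level as for the plot of the 10 genes. Csf1 1425154_a_at stays level or falls while the other 3 rise, and Msr1 rises on some UUO arrays only.

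Csf1r, the receptor for this ligand, was on the sham arrays 3364, 3944 and 2319 in WT, 3565, 4024 and 4572 in TIMP2-/-, and 3212, 4112 and 3598 in TIMP3-/- (probe set 1419872_at). UUO brought it to 7470, 8656 and 6949 in WT, 7106, 7765 and 7872 in TIMP2-/-, and 11180, 8211 and 8411 in TIMP3-/-. TIMP3-/- UUO 1 stood above the other 8 obstructed kidneys, which lay between 6949 and 8656. The receptor rose 2.44-fold in WT (log2 difference 1.29 ± 0.18, adjusted p = 0.000104), 1.88-fold in TIMP2-/- (0.91 ± 0.18, 0.0022) and 2.53-fold in TIMP3-/- (1.34 ± 0.18, 3.45e-05). Its other probe sets moved the same way in WT, by 1.35 ± 0.19 (1419873_s_at) and 1.16 ± 0.24 (1423593_a_at), and the 3 probe sets correlated at 0.96 to 0.99 over the 18 arrays. The rise of 1423593_a_at in TIMP2-/-, 0.72 ± 0.24 (adjusted p = 0.0302), did not pass once the arrays were centred on their medians (0.57, adjusted p = 0.0743). It was also lost without any single TIMP2-/- array other than sham 3 (adjusted p 0.0603 to 0.0911).

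Among the surface proteins that identify macrophages, Adgre1 encodes F4/80, the classical marker of mouse tissue macrophages. Sham kidneys had 149.8, 135.4 and 109.8 in WT, 196.4, 151.4 and 214.1 in TIMP2-/-, and 196.1, 258.9 and 197.8 in TIMP3-/-. Obstructed kidneys had 1268, 1503 and 812.1 in WT, 1134, 1262 and 880.9 in TIMP2-/-, and 2168, 1214 and 1307 in TIMP3-/-. The weakest obstructed kidney, WT UUO 3, still exceeded the brightest sham kidney, TIMP3-/- sham 2. Adgre1 rose 8.86-fold in WT (log2 difference 3.15 ± 0.25, adjusted p = 6.67e-07), 5.83-fold in TIMP2-/- (2.54 ± 0.25, 5.93e-06) and 7-fold in TIMP3-/- (2.81 ± 0.25, 1.41e-06).

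Itgam encodes CD11b, the integrin chain of complement receptor 3 on monocytes, macrophages and neutrophils. It was in the dim range on all 9 sham arrays, with 29.57, 31.49 and 21.66 in WT, 31.49, 28.7 and 36.93 in TIMP2-/-, and 23.1, 34.5 and 30.97 in TIMP3-/-. All 9 UUO arrays were above that range, with 179.2, 313.3 and 131.1 in WT, 125.9, 164.4 and 154.0 in TIMP2-/-, and 485.4, 234.3 and 233.4 in TIMP3-/-. The 3 TIMP3-/- kidneys all lay above the 3 TIMP2-/- kidneys, and the WT kidneys, from 131.1 to 313.3, overlapped both groups. The log2 difference was 2.84 ± 0.31 in WT (adjusted p = 9.33e-06), 2.19 ± 0.31 in TIMP2-/- (0.000143) and 3.36 ± 0.31 in TIMP3-/- (1.64e-06). Sham values in the dim range may be mostly background, so the size of a fold over them is uncertain.

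Cd68, a glycoprotein of the lysosomes of macrophages, was 157.7, 151.5 and 100.1 in WT sham, 172.5, 174.6 and 257.2 in TIMP2-/- sham, and 163.0, 288.7 and 225.8 in TIMP3-/- sham. With obstruction it reached 957.9, 2178 and 878.9 in WT, 1140, 1123 and 1351 in TIMP2-/-, and 2753, 1204 and 1431 in TIMP3-/-. The 2 highest kidneys, TIMP3-/- UUO 1 and WT UUO 2, belong to different genotypes. Its rise was 9.15-fold in WT (log2 difference 3.19 ± 0.35, adjusted p = 1.03e-05), 6.07-fold in TIMP2-/- (2.60 ± 0.35, 0.000103) and 7.64-fold in TIMP3-/- (2.93 ± 0.35, 1.17e-05).

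Of the receptors that bind sugars, lipoproteins and microbial products, Mrc1 (CD206, the mannose receptor often used to mark alternatively activated macrophages) varied most among obstructed kidneys. In sham kidneys it was 51.81, 55.17 and 71.94 in WT, 60.47, 31.87 and 39.41 in TIMP2-/-, and 46.89, 39.12 and 49.46 in TIMP3-/-, within the dim range on 8 of 9 arrays. After UUO it was 467.9, 1104 and 319.8 in WT, 454.8, 518.8 and 326.2 in TIMP2-/-, and 1906, 1690 and 507.6 in TIMP3-/-. The highest obstructed kidney was 5.96 times the lowest, the widest spread of the 18 probe sets after UUO. Mrc1 rose by 3.22 ± 0.46 on the log2 scale in WT (adjusted p = 0.000118), 3.33 ± 0.46 in TIMP2-/- (0.000129) and 4.71 ± 0.46 in TIMP3-/- (2.68e-06). The last difference was 4.36 without TIMP3-/- UUO 1 and 5.32 without TIMP3-/- UUO 3.

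Cd14, the co-receptor that hands bacterial lipopolysaccharide to the toll-like receptor complex, was among the tightest. Sham values were 381.1, 423.3 and 267.4 in WT, 422.2, 487.2 and 516.0 in TIMP2-/-, and 453.8, 519.4 and 468.8 in TIMP3-/-. UUO values were 3274, 3065 and 2792 in WT, 3970, 3622 and 3188 in TIMP2-/-, and 3786, 2945 and 3863 in TIMP3-/-. The highest obstructed kidney was 1.42 times the lowest. Cd14 rose 8.66-fold in WT (log2 difference 3.11 ± 0.16, adjusted p = 1.45e-08), 7.56-fold in TIMP2-/- (2.92 ± 0.16, 3.31e-08) and 7.3-fold in TIMP3-/- (2.87 ± 0.16, 3.86e-08).

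Msr1, the scavenger receptor A that takes up modified lipoproteins, was the gene that did not follow. Its brightest probe set 1425434_a_at was 114.6, 87.99 and 124.4 in WT sham and 98.43, 179.6 and 108.9 in WT UUO, 128.5, 124.8 and 132.2 against 104.5, 106.6 and 130.3 in TIMP2-/-, and 118.1, 138.7 and 136.7 against 193.2, 121.8 and 109.8 in TIMP3-/-. Only WT UUO 2 and TIMP3-/- UUO 1 lay above the sham range. The log2 differences were 0.21 ± 0.23 in WT (95% interval −0.28 to 0.69, adjusted p = 0.514), −0.18 ± 0.23 in TIMP2-/- (−0.67 to 0.30, 0.542) and 0.07 ± 0.23 in TIMP3-/- (−0.42 to 0.55, 0.798). Probe set 1422062_at passed in TIMP3-/- alone (0.83 ± 0.31, adjusted p = 0.0291), with 263.3, 120.3 and 100.1 against 79.68, 77.34 and 91.35 in sham. The call was lost without TIMP3-/- UUO 1 (0.41, adjusted p = 0.177), sham 1 (0.81, 0.0603) or sham 2 (0.78, 0.0768), and whether it differed from the other genotypes did not pass either (TIMP3-/- minus WT 0.41 ± 0.44, adjusted p = 0.534). Probe set 1448061_at had 3 TIMP2-/- obstructed kidneys (75.2, 65.54 and 76.5) below the 3 sham kidneys (129.2, 93.64 and 80.2), with −0.45 ± 0.34 and adjusted p = 0.298. So did 32.3% of all probe sets in TIMP2-/-, where 20.9% passed as lower. Probe set 1448061_at passed when the 6 arrays were fitted alone with replicate number as a block (adjusted p = 0.0453). Probe set 1425435_at was between 17.24 and 28.97 on all 18 arrays, within the dim range.

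Of the secreted products, Lyz2 (lysozyme M, the enzyme of myeloid cells that cuts bacterial walls) had the largest rise of the 10 genes in WT and TIMP2-/-. It was 1084, 920.8 and 872.7 in WT sham, 1003, 797.6 and 960.8 in TIMP2-/- sham, and 1305, 1251 and 1504 in TIMP3-/- sham. After UUO it was 13843, 22149 and 9298 in WT, 11098, 11760 and 11250 in TIMP2-/-, and 24468, 18622 and 15396 in TIMP3-/-. The TIMP2-/- kidneys lay close together and below every TIMP3-/- kidney, while WT covered the range of both groups but for TIMP3-/- UUO 1 at the top. Lyz2 rose 14.8-fold in WT (log2 difference 3.89 ± 0.24, adjusted p = 7.47e-08), 12.4-fold in TIMP2-/- (3.63 ± 0.24, 1.28e-07) and 14.2-fold in TIMP3-/- (3.83 ± 0.24, 7.03e-08). Lyz1 is a close copy of Lyz2: its probe sets 1436996_x_at and 1439426_x_at, whose suffix marks probes that can match other genes, followed Lyz2 at correlations of 0.998 over 18 arrays. Another, 1450822_at, was 30.39 to 57.49 on all arrays, so the share of Lyz2 and Lyz1 in the lysozyme signal is uncertain.

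Lgals3, galectin-3, a sugar-binding protein that macrophages secrete and that is linked to scarring, was 2371, 2790 and 1530 in WT sham, 2723, 3108 and 3163 in TIMP2-/- sham, and 2384, 2908 and 2269 in TIMP3-/- sham. Obstructed kidneys gave 9387, 10644 and 10028 in WT, 9990, 8241 and 8766 in TIMP2-/-, and 10387, 8308 and 9528 in TIMP3-/-. Its 9 obstructed kidneys were the closest together of the 18 probe sets, with the highest 1.29 times the lowest. The rise was 4.63-fold in WT (log2 difference 2.21 ± 0.18, adjusted p = 8.19e-07), 3-fold in TIMP2-/- (1.58 ± 0.18, 2.17e-05) and 3.74-fold in TIMP3-/- (1.90 ± 0.18, 2.15e-06).

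**Figure D3:**
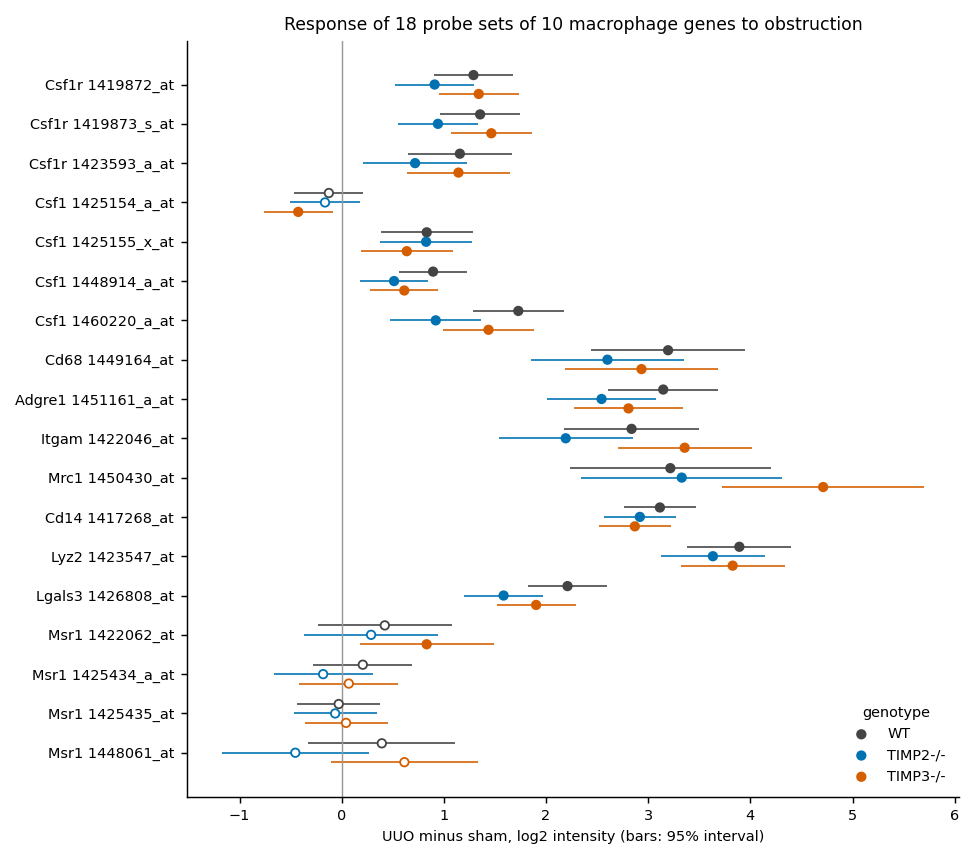
Difference in log2 intensity between UUO and sham (horizontal axis) for all 18 probe sets in WT, TIMP2-/- and TIMP3-/-, with bars for the 95% interval and filled points where the adjusted p was under 0.05. Lyz2 and Mrc1 lie farthest right, Csf1r and Csf1 nearer to 0, and 1 Csf1 and most Msr1 probe sets around 0.

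The obstructed kidneys of the genotypes were then compared, which asks whether loss of TIMP2 or TIMP3 changed the level of the macrophage genes. No probe set of the 10 genes passed in any of these comparisons with limma, and the 3 comparisons share their obstructed groups. For TIMP2-/- against WT, 0.0486% of all probe sets passed (0.0265% higher and 0.0221% lower), and 0 of the 18 had even an unadjusted p under 0.05. Differences of the brightest probe sets ran from −0.43 ± 0.21 (Csf1, 95% interval −0.88 to 0.02) to 0.24 ± 0.16 (Cd14, −0.11 to 0.59), with a median of −0.15 beside 0.04 over all probe sets. The interval was widest for Mrc1 (−1.35 to 0.62), followed by Cd68 (−0.78 to 0.72), so neither shows that these genotypes are alike.

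Against WT, the TIMP3-/- obstructed kidneys had positive differences in 8 of the 10 genes, with a median of 0.32 beside −0.04 over all probe sets, of which 0.707% passed (0.539% higher and 0.168% lower). An unadjusted p under 0.05 was found for 1 of the 18, Mrc1, and for 20.5% of all probe sets. Mrc1 was at 1906, 1690 and 507.6 against 467.9, 1104 and 319.8 in WT, a log2 difference of 1.10 ± 0.46 (95% interval 0.12 to 2.09, adjusted p = 0.204). These groups overlapped through TIMP3-/- UUO 3 and WT UUO 2. Without WT UUO 2 the difference was 1.61 (adjusted p = 0.0368), and Lyz2 then passed as well (0.75, adjusted p = 0.032), at 9.74% of all probe sets. Without TIMP3-/- UUO 3, Mrc1 differed by 1.71 (adjusted p = 0.0225) and 11% of all probe sets passed. Without TIMP3-/- UUO 1 the difference of Mrc1 was 0.76 (adjusted p = 0.428), and without the 3 arrays set apart it was 1.35 (adjusted p = 0.12). The call therefore rests on which array of 3 is left out.

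Between the knockouts, all genes but Cd14 were lower in TIMP2-/- than in TIMP3-/- obstructed kidneys by their point estimates, with a median of −0.42 beside 0.08 over all probe sets. Of all probe sets 7.06% passed, 4.65% as higher and 2.4% as lower in TIMP2-/-. Itgam differed by −1.02 ± 0.31 (95% interval −1.68 to −0.36, adjusted p = 0.0564), Mrc1 by −1.47 ± 0.46 (−2.46 to −0.48, 0.0626) and Lyz2 by −0.75 ± 0.24 (−1.26 to −0.24, 0.0641), each just short of the threshold. Unadjusted p-values were under 0.05 for these 3 genes and for 2 minor probe sets, Csf1r 1419873_s_at and Msr1 1448061_at. These 5 of 18, 27.8%, are near the 30.2% of all probe sets with such a p. The 3 TIMP2-/- values lay below the 3 TIMP3-/- values for 4 genes, Csf1r, Csf1, Itgam and Lyz2, and for 11% of all probe sets, beside the 2.4% that passed as lower. Without TIMP3-/- UUO 3, Itgam (−1.20, adjusted p = 0.0231), Mrc1 (−2.08, 0.00444) and Lyz2 (−0.91, 0.0234) passed together with Msr1 1448061_at (−1.31, 0.00603), at 24.7% of all probe sets. Without TIMP3-/- UUO 1 they were −0.67 (adjusted p = 0.185), −1.12 (0.189) and −0.58 (0.192), and without the 3 arrays set apart Itgam alone passed (−1.19, 0.0331).

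**Figure D4:**
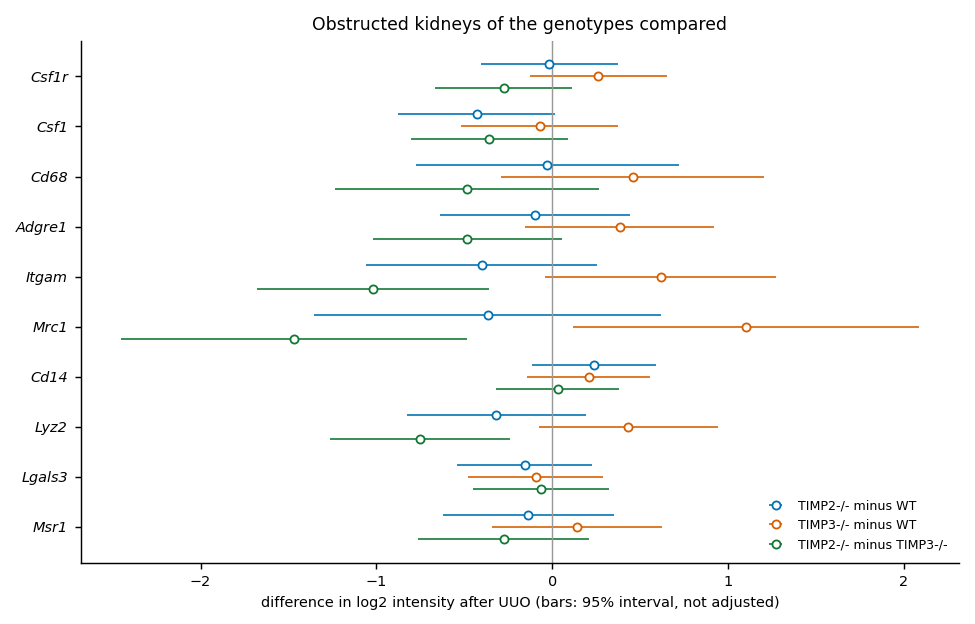
Difference in log2 intensity between obstructed kidneys of 2 genotypes (horizontal axis) for the brightest probe set of each gene, with bars for the unadjusted 95% interval and open points because none passed the threshold. The intervals of Itgam, Mrc1 and Lyz2 between TIMP2-/- and TIMP3-/- exclude 0 before adjustment, as does that of Mrc1 between TIMP3-/- and WT.

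The size of the response to UUO was compared between genotypes with the interaction of operation and genotype. No probe set on the array passed in any of the 3 comparisons (0% of all probe sets in each), although 2015 had an unadjusted p under 0.05 for TIMP2-/- minus WT, 5852 for TIMP3-/- minus WT and 2266 for TIMP2-/- minus TIMP3-/-. These are 8.91%, 25.9% and 10% of all probe sets, against 11.1%, 5.56% and 11.1% of the 18. Among the 10 genes the unadjusted p was under 0.05 for Csf1 (−0.81 ± 0.30, adjusted p = 0.551) and Lgals3 (−0.63 ± 0.26, adjusted p = 0.551) in TIMP2-/- minus WT. Mrc1 had it in TIMP3-/- minus WT (adjusted p = 0.177), and Itgam in TIMP2-/- minus TIMP3-/- (adjusted p = 0.409). Since the sham values of Mrc1 were in the dim range on 8 of 9 arrays and those of Itgam on all 9, no size is given for either. In the last comparison it was also under 0.05 for Msr1 1448061_at (−1.07 ± 0.48, adjusted p = 0.487).

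In sham kidneys the order of the genotypes was not settled either. For TIMP2-/- against WT 0.0221% of all probe sets passed and 0 of the 18, and for TIMP3-/- against WT 0.0442% (0.0265% higher and 0.0177% lower) and again 0. In each comparison 2 of the 18, 11.1%, had an unadjusted p under 0.05 in the limma fit, against 25.8% of all probe sets for TIMP2-/- and 10.6% for TIMP3-/-, shares that the 18 do not clearly exceed. Cd14 had an unadjusted p under 0.05 in both (0.43 ± 0.16, adjusted p = 0.151, and 0.45 ± 0.16, adjusted p = 0.472), as did Lgals3 in TIMP2-/- (0.47 ± 0.18, adjusted p = 0.153) and Adgre1 in TIMP3-/- (0.72 ± 0.25, adjusted p = 0.472). The 3 TIMP2-/- sham values lay above the 3 WT values for Cd68, Adgre1 and Msr1, as was so for 26.3% of all probe sets, so 3 of 10 is near the share on the whole array (0.0221% passed as higher). The 3 TIMP3-/- sham values lay above the 3 WT values for Cd68, Adgre1, Cd14 and Lyz2, and below them for Mrc1. Of all probe sets 9.86% lay above and 4.72% below in that way, while 0.0265% passed as higher and 0.0177% as lower. WT sham 3 held the lowest sham value for 6 of the 10 genes and the highest for Mrc1. Set in order, each of the 9 genes thus had its 3 sham groups below its 3 obstructed groups, and no genotypes compared within an operation differed past the threshold. TIMP2-/- sham was not tested against TIMP3-/- sham.

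Single kidneys often led several of the genes at once. TIMP3-/- UUO 1 was the highest of the 9 obstructed kidneys for 7 of the 10 genes and WT UUO 3 the lowest for 6. After subtraction of group means, log2 intensities of Cd68 and Itgam correlated at 0.94 over the 18 arrays, Cd14 and Lgals3 at 0.85, Itgam and Lyz2 at 0.83 and Mrc1 and Lyz2 at 0.79, whereas Mrc1 and Cd14 correlated at −0.24. Over the 36 pairs of the 9 genes without Msr1 the median was 0.59. Without that subtraction, Itgam and Lyz2 correlated at 0.96 and Cd14 and Lgals3 at 0.11 over the 9 obstructed kidneys. Over the 9 sham kidneys the values were 0.09 and 0.89. Differences between genotypes enter these values. Itgam was in the dim range on all 9 sham arrays, so its 0.09 cannot show that the pair parts in sham. All the correlations describe 18 arrays that share the groups' operations and the arrays' overall signal.

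For each of the 10 the gene whose log2 intensity was most like it over the 18 arrays was looked up among all others by Pearson correlation. Cd68 was nearest to Itgb2 (0.996), the integrin chain that pairs with CD11b, and Csf1r to Fermt3 (0.991), a protein of blood cells that activates integrins. Adgre1 was nearest to Rgs19 (0.995), Itgam to Serpinh1 (0.993), a chaperone of collagen, Mrc1 to Rcn1 (0.99), Cd14 to Aldh1a2 (0.996), which makes retinoic acid, and Lgals3 to Crlf2 (0.99). Csf1 was nearest to Maged2 (0.979), Msr1 to Fam3b (0.92) and Lyz2 to Lyz1 (0.998). The step between sham and UUO enters these correlations, except that of Msr1, which did not pass in that comparison. After subtraction of group means the 10 pairs still correlated, from 0.82 (Lgals3 and Crlf2) to 0.96 (Lyz2 and Lyz1), with Msr1 and Fam3b at 0.95. The pairs had been picked as the highest over the same arrays.

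Other genes of macrophage biology were followed in lists, each gene by its brightest probe set. Over all 12393 genes 16.6% passed as higher and 16% as lower in WT, 15.7% and 21.6% in TIMP2-/-, and 25.6% and 38.8% in TIMP3-/-. Of the 126 measured genes in the 8 lists of macrophage biology, 62.7%, 57.9% and 69% passed as higher and 3.97%, 2.38% and 7.14% as lower, in that order. Of 19 measured genes of CSF1 receptor signalling and macrophage transcription factors, 13 were higher and 1 (Maf, −0.62 ± 0.17) lower in WT, with a median log2 difference of 0.96 beside −0.09 over all genes. Tyrobp, the adaptor of activating receptors, rose by 3.29 ± 0.28, Csf2rb, the shared beta chain of cytokine receptors, by 2.06 ± 0.45 and Trem2, a lipid-sensing receptor, by 1.84 ± 0.30. The second ligand of CSF1R, Il34, named after its values were seen, rose by 1.43 ± 0.26 in WT (adjusted p = 0.000697), 1.29 ± 0.26 in TIMP2-/- (0.002) and 1.32 ± 0.26 in TIMP3-/- (0.000597). Spi1, which encodes PU.1 and was also named afterwards, rose by 1.58 ± 0.25, 1.22 ± 0.25 and 1.42 ± 0.25. In TIMP2-/- 11 of the 19 were higher and 0 lower, and in TIMP3-/- 12 were higher and 1, Maf, lower.

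Among 22 phagocytic and pattern recognition receptors, 13 were higher in WT, 12 in TIMP2-/- and 17 in TIMP3-/-. Fcgr3 (3.46 ± 0.31) and Fcgr1 (3.21 ± 0.33), receptors for antibody, and Clec4n (3.22 ± 0.56), a receptor for fungal sugars, led in WT. Cd36 (−1.85 ± 0.54) and Mertk (−1.07 ± 0.23), which serve the uptake of lipid and of dying cells, were the 2 that fell in WT, Marco fell in TIMP2-/- and 0 fell in TIMP3-/-. The median in WT was 1.79. Of 15 lysosomal genes 9 were higher and 2 (Lamp2 and Lipa) lower in WT, at a median of 0.42, with the proteases Ctss (3.20 ± 0.23) and Ctsk (3.04 ± 0.33) and the membrane protein Laptm5 (3.03 ± 0.30) ahead. In TIMP2-/- 8 were higher and 1, Lipa, lower, and in TIMP3-/- 9 were higher and 2, Lipa and Acp5, lower.

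Lists named for classical and alternative activation both moved in part. Of 15 classical genes 5 were higher in WT and 0 lower at a median of 1.13, 6 and 0 in TIMP2-/-, and 8 and 4 in TIMP3-/-, where the 4 lower are a smaller share than the 38.8% over all genes. Socs3, a brake on cytokine signalling, rose by 4.22 ± 0.32, and Ncf4 (2.15 ± 0.30) and Ncf1 (1.77 ± 0.25) encode parts of the oxidase of phagocytes. Tnf and Nos2, whose products define classical activation, were among the 4 lower genes in TIMP3-/- (−0.40 ± 0.12, adjusted p = 0.0122, and −0.64 ± 0.19, adjusted p = 0.0091), with Il12b and Cyba. In WT they were at 0.00 ± 0.12 (adjusted p = 0.999) and −0.48 ± 0.19 (adjusted p = 0.0656). Of 16 alternative genes 9 were higher in WT, 5 in TIMP2-/- and 9 in TIMP3-/-, and 0 lower in each, with a median of 1.14 in WT. Clec10a, a lectin, rose 5.68-fold, Igf1, a growth factor, by 1.57 ± 0.54 on the log2 scale and Arg1, which degrades arginine, by 3.38 ± 1.22 (adjusted p = 0.0468) in WT. The SE of Arg1 was the largest of the 16, and the part of the liver signal on WT UUO 2 in its rise was not tested.

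Most recruitment and effector genes passed as higher, with medians of 2.05 and 2.60 in WT. Of 13 genes of monocyte recruitment, 11 were higher in WT, 11 in TIMP2-/- and 12 in TIMP3-/-, with the chemokines Ccl8 (4.43 ± 0.56) and Ccl12 (3.19 ± 0.36) and the adhesion molecule Vcam1 (4.07 ± 0.25) ahead in WT. Of 18 macrophage effector genes 15 were higher in each genotype, led in WT by the complement chains C1qb (3.40 ± 0.22), C1qc (3.32 ± 0.24) and C1qa (3.28 ± 0.23). Among 8 other galectins and lysozymes, 4 were higher in WT (median 0.90), 5 in TIMP2-/-, where Lgals4 was lower, and 5 in TIMP3-/-, where Lgals2 and Lgals4 were lower. Lyz1 (3.54 ± 0.19, by a probe set that may also read Lyz2), Lgals1 (2.08 ± 0.19) and Lgals9 (1.75 ± 0.27) led in WT. Between obstructed kidneys of TIMP2-/- and TIMP3-/-, 3 of the 126 genes passed (2.38%, beside 1.8% of all genes as lower), all lower in TIMP2-/-: Axl (−0.71 ± 0.20), Cybb (−1.19 ± 0.29) and Mpeg1 (−1.06 ± 0.26). Between TIMP3-/- and WT 1 passed, Clec7a (1.48 ± 0.32, higher in TIMP3-/-), which is 0.794% beside 0.315% of all genes as higher, and between TIMP2-/- and WT 0 passed with limma. An unadjusted limma p under 0.05 was found for 5 of the 126 between TIMP2-/- and WT, beside 3.4% of all probe sets. It was found for 24 between TIMP3-/- and WT, beside 20.5%, and for 38 between the knockouts, beside 30.2%.

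**Figure D5:**
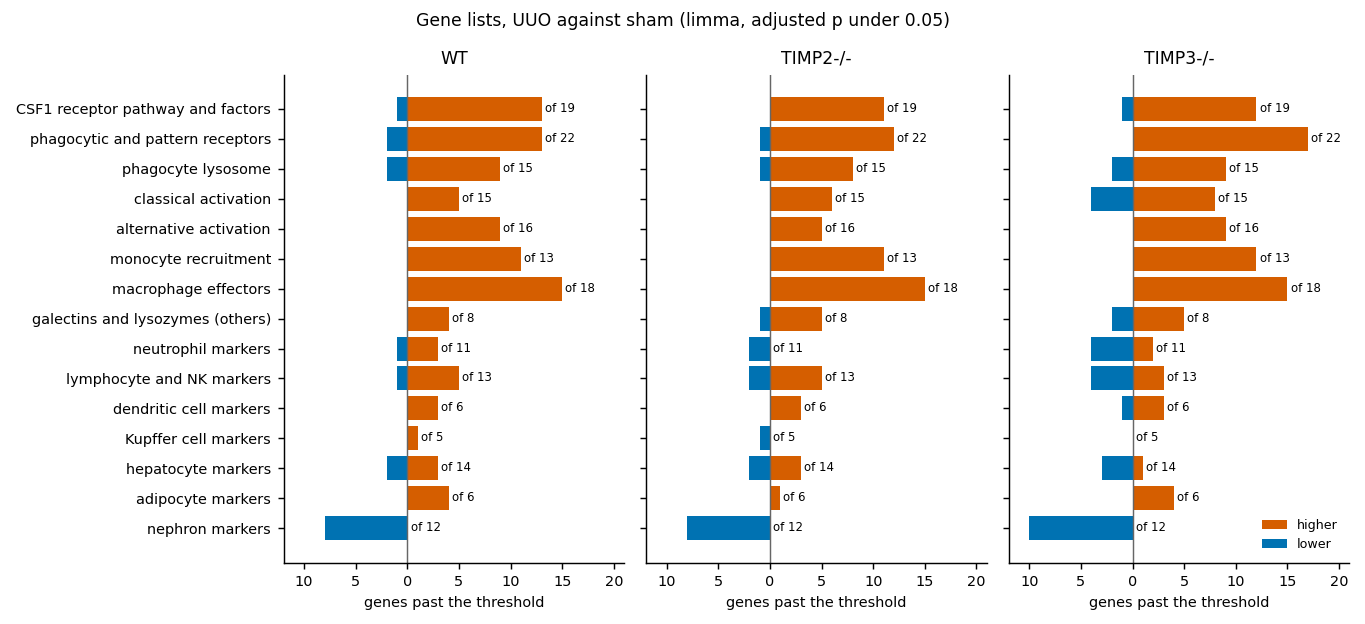
Number of genes (horizontal axis) of each list that passed as higher (right, orange) or lower (left, blue) after UUO in WT, TIMP2-/- and TIMP3-/-, with the number measured beside each bar. Recruitment and effector genes are higher nearly throughout in all genotypes, nephron genes are lower, and neutrophil and lymphocyte lists are mixed.

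Markers of other cells also moved with obstruction, and their part in the results above was not tested. Of 11 measured neutrophil markers 3 were higher in WT (S100a8 3.10 ± 0.87, S100a9 2.47 ± 0.83 and Prtn3 1.54 ± 0.31), 0 in TIMP2-/- and 2 in TIMP3-/-, while 1, 2 and 4 were lower, which in TIMP2-/- and TIMP3-/- is near the 21.6% and 38.8% of all genes. Their summed intensity was 694.09 to 734.39 in WT sham, 925.09 to 5502.34 in WT UUO, 822.02 to 1219.07 in TIMP2-/- UUO and 933.3 to 4424.22 in TIMP3-/- UUO. S100a8 was 2126 on WT UUO 2 and 1514 on TIMP3-/- UUO 1, the 2 arrays that were highest for 9 of the 10 genes between them, and at most 398.5 on the other 7 UUO arrays. Lymphocyte and NK markers were higher for 5 of 13 in WT, led by Cd79b, Gzma and Cd3g, 5 in TIMP2-/- and 3 in TIMP3-/-, with 1, 2 and 4 lower. Of all genes, 16.6%, 15.7% and 25.6% were higher and 16%, 21.6% and 38.8% lower. Cd79a was 69.02 to 76.07 in WT sham and 44.26 to 55.16, dim, in WT UUO. Cd3e was 161.9 to 175.2 and 118.9 to 162.2, and Ms4a1 was dim on all arrays. The list's sums were 1041.52 to 1459.98 in sham and 1060.64 to 1701.7 after UUO. Dendritic cell markers were higher for 3 of 6 in each genotype, Cd83, Ccr7 and Zbtb46 in WT, with Itgae lower in TIMP3-/-, whereas Flt3, a defining gene of that lineage, stayed at 125.6 to 196.3 on all arrays.

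Fat and liver transcripts differed between arrays of 1 group. Adipoq, the adipocyte hormone adiponectin, was 16.08 to 728.3 in sham and 348.9 to 7461 after UUO, lowest on TIMP3-/- UUO 3 and highest on TIMP3-/- UUO 1. In WT 4 of 6 adipocyte markers passed as higher, with Adipoq at 5.68 ± 1.21, Cidec at 2.99 ± 0.65 and Fabp4 at 1.86 ± 0.61, and the sums were 3372.79 to 16085 in WT UUO, 5525.69 to 6524.27 in TIMP2-/- UUO and 2661.29 to 19047.8 in TIMP3-/- UUO. Mrc1 had the same highest array after UUO, and TIMP3-/- UUO 3 was its lowest TIMP3-/- obstructed kidney. Neither was particular to Mrc1. TIMP3-/- UUO 1 was highest for 7 of the 10 genes. TIMP3-/- UUO 3 was the lowest TIMP3-/- obstructed kidney for Itgam (233.4, beside 234.3 on TIMP3-/- UUO 2), Lyz2 and Msr1 too. After UUO, Adipoq was highest on TIMP3-/- UUO 1 (7461), WT UUO 2 (6388) and TIMP3-/- UUO 2 (5281). The same 3 arrays were the 3 highest obstructed kidneys for Mrc1 (1906, 1104 and 1690), Itgam and Lyz2, but not for the other genes. The part of fat in these values was not tested. Of 14 hepatocyte markers 3 were higher in WT (Fgb, Fgg and Fga, the fibrinogen chains) and 2 lower. In TIMP2-/- 3 were higher and 2 lower, and in TIMP3-/- 1 was higher and 3 lower. Of all genes, 16.6%, 15.7% and 25.6% were higher and 16%, 21.6% and 38.8% lower in WT, TIMP2-/- and TIMP3-/-. The sum of all 14 reached 128671 on WT UUO 2 against at most 46724.7 in sham. Of 5 Kupffer markers Cd5l alone passed in WT (1.22 ± 0.42). Of 12 nephron markers 8 were lower in WT, 8 in TIMP2-/- and 10 in TIMP3-/-, led in WT by Calb1 (−3.21 ± 0.50), Slc12a1 (−2.27 ± 0.51) and Lrp2 (−1.90 ± 0.25).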

How the data were processed

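Kidney RNA of 18 samples was hybridised to Affymetrix Mouse430A_2 arrays. The deposited values were 1 intensity per probe set and array on a linear scale, and RMA is named in the submitters' processing notes, with no version or step back to linear values. RMA makes the arrays' distributions alike, so a shift of all transcripts would not show. Of 22690 probe sets 64 were controls and were left out. The deposited intensities were turned into log2 with no pseudocount and fitted with limma 3.58.1 in R 4.3.3 (6 group means, 12 residual and 3.28 prior degrees of freedom), in 11 comparisons, with Benjamini-Hochberg adjustment in each and a threshold of 0.05. Errors are the fit's SE. The scripts were tested on simulated data. With 3 arrays a group, their number limits the precision, and an exact permutation test cannot give a p below 0.1. The labels call the samples biological replicates.

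The genes and lists were chosen with earlier results of these data known. Named by rule were all probe sets of the 10 genes, Timp2 and Timp3, the 3 largest changes of each list in WT, each gene's nearest by correlation, and defining markers of other cells; Il34, Spi1 and the few list genes that fell or differed between genotypes were named after their values were seen. Lists held 5 to 22 measured genes. Deviations from group means of same-numbered arrays correlated over 0.1 in every pair in 2 of 8 comparisons of 2 groups (UUO against sham in TIMP2-/-, and TIMP2-/- UUO against WT UUO), and ran from −0.58 to 0.61 over 24 pairs. The labels tie no numbers together. Alternatives were a replicate block, only the arrays compared, centring, renewed quantile normalization, 1 probe set a gene, filters on dim and on suffixed probe sets, and leaving out arrays.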

Additional observations from a re-analysis of the deposited data

How the results depend on the processing

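No difference of the 10 genes reversed, and 9 of them were higher after UUO in each genotype under every alternative but 1: with suffixed probe sets left out, the brightest probe sets of Csf1, Adgre1 and Msr1 were not tested, and the other 7 genes all passed. Array numbers of 3 a group, and dim signal for Itgam and Mrc1 in sham and Msr1 1425435_at throughout, limit the rest. With the replicate block in the fit of all arrays, 198 of 198 tested differences of the 18 probe sets kept their call, and 0.00442% of probe sets passed in the response TIMP2-/- minus TIMP3-/- (0% without it), a value that renewed quantile normalization also gave. With only the arrays compared and the replicate block, chosen after seeing the data and run in the 2 comparisons whose numbers paired, 1 call changed (Msr1 1448061_at, given above) and 0.0177% of probe sets passed for TIMP2-/- UUO against WT UUO.

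With only the arrays compared, the percent of probe sets that passed was 0.0309 (TIMP2-/- against WT after UUO), 0.0221 (TIMP3-/- against WT after UUO), 0.115 (TIMP2-/- against TIMP3-/- after UUO), 0.00884 and 0.0177 (TIMP2-/- and TIMP3-/- against WT, sham), and 0.00442 and 0.119 (responses, TIMP2-/- minus WT and minus TIMP3-/-). With 1 probe set a gene it was 0.0242, 0.395, 0.00807 and 0.0161 for TIMP2-/- and TIMP3-/- against WT after UUO and sham, and 0.00807 for the response TIMP2-/- minus TIMP3-/-. Without the 3 arrays set apart it was 17 for UUO in WT, 3.59 and 4.31 for TIMP3-/- against WT and TIMP2-/- against TIMP3-/- after UUO (1 gene and 1 probe set of the 18 passing in the latter), and 0.0133 and 0.0221 for the sham comparisons. The cause was not tested.

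Leaving out single arrays, the percent that passed ranged from 19.5 (without WT UUO 2) to 32.7 for UUO in WT, 17.8 to 42.6 in TIMP2-/- and 48.8 to 65.7 in TIMP3-/-. It was 0.0265 to 0.0928, 0.155 to 11 and 0.495 to 24.7 for TIMP2-/- against WT, TIMP3-/- against WT and TIMP2-/- against TIMP3-/- after UUO. Of the 10 genes 0 to 2 passed in the second (0 to 2 probe sets) and 0 to 3 in the third (0 to 4 probe sets). It was 0.00884 to 0.0442 and 0.0221 to 0.0265 for TIMP2-/- and TIMP3-/- against WT in sham. For the responses it was 0 to 0.0133, 0 to 0.208 and 0 to 1.48 (TIMP2-/- minus WT, TIMP3-/- minus WT, TIMP2-/- minus TIMP3-/-). Of the 18 probe sets, 13 passed after UUO in WT, 11 to 13 in TIMP2-/- and 12 to 16 in TIMP3-/-, in either direction.

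Centring on array medians moved the median of all probe sets by more than 0.1, to −0.25, −0.27 and −0.41 for UUO in WT, TIMP2-/- and TIMP3-/-. The minor probe sets of Csf1, Csf1r and Msr1 then lost 5 calls, 3 were lost with only the arrays compared and 2 with renewed quantile normalization.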
